A study of Mus musculus with 24 samples.

Results

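Mrap2 and 14 other genes were low in hearts of C57BL/6J mice and expressed in hearts of both NZO/HlLtJ and CAST/EiJ mice. These 15 genes were chosen by measured values, among 20961 listed genes, from the mean CPM (counts scaled to a library total of 1e6) over the 8 libraries of each strain. A member had to reach at least 1 CPM in NZO/HlLtJ and in CAST/EiJ, and its C57BL/6J mean had to be at most 1/4 of the lower of those means. Of 29 genes that met these values, 14 were dropped because the rule leaves out the symbols of predicted genes and of certain gene families. The low level in C57BL/6J is therefore the criterion by which the genes were chosen, and it is described here without a test.

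Bulk RNA sequencing of polyadenylated RNA was carried out on whole mouse heart from wild-type animals with no treatment beyond the food, which the labels name 44% fat + fiber (a high fat, high sugar diet) or 10% fat + fiber (control). Feeding began at week 6 of age and ended with tissue collection at week 15. C57BL/6J is the common laboratory strain whose genome is the mouse reference, NZO/HlLtJ is a polygenic obese strain, and CAST/EiJ was bred from wild mice of the castaneus subspecies. Each strain had 2 libraries for each of females at 44% fat, females at 10% fat, males at 44% fat and males at 10% fat, which makes 12 groups and 24 libraries. Whether both libraries of a group are separate animals is not stated in the labels, so the p-values below reflect only the spread between libraries, which may be technical. Total counts lay between 30205073 and 52254058 per library. Summed cardiomyocyte markers (8 of 8 listed) had medians of 58096 CPM in C57BL/6J, 58312 CPM in NZO/HlLtJ and 60662 CPM in CAST/EiJ. For every member, fewer cells of a type and less RNA per cell cannot be told apart in bulk tissue.

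The members share no single pathway. Mrap2 encodes an accessory protein of melanocortin receptors, G protein-coupled receptors that signal through cyclic AMP, and mice without it become obese. Gcnt1 branches O-glycans, and Cds1 makes CDP-diacylglycerol, from which phosphatidylinositol and cardiolipin are built. Atp2b2 is a calcium pump of the plasma membrane, Sypl2 a membrane protein of the skeletal muscle triad, and Fmn1 a formin that nucleates actin filaments. Prom1 is found in membrane protrusions, Tspan10 is a tetraspanin, Tmprss13 is a transmembrane serine protease, and Hddc3 is a hydrolase related to a bacterial nucleotide phosphatase. Alx4 and E2f2 are transcription factors, the first of craniofacial and limb mesenchyme and the second of the cell cycle.

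The 250 bases upstream of the annotated start are shown for 3 of the 5 genes lowest in C57BL/6J relative to the other strains, since they bear on whether these promoters look alike. They come from the RefSeq table of GRCm38.p6, which is C57BL/6J sequence, so differences between strains cannot be read from them. They are given 5′ to 3′ on the gene's strand, which is the plus strand for each, with GGGCGG or its reverse complement CCGCCC in capitals.
Mrap2 at chr9:87144056-87144305: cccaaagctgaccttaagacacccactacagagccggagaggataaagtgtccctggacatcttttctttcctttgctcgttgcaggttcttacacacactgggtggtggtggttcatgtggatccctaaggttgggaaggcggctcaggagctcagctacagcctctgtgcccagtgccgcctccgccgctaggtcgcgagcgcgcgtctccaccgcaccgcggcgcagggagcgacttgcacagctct
Fmn1 at chr2:113327486-113327735: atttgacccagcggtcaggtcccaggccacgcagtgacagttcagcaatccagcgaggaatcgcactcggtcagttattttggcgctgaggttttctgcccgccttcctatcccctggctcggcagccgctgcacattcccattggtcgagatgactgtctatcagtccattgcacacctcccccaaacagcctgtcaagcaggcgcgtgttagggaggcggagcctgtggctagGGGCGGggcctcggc
Fam131c at chr4:141367942-141368191: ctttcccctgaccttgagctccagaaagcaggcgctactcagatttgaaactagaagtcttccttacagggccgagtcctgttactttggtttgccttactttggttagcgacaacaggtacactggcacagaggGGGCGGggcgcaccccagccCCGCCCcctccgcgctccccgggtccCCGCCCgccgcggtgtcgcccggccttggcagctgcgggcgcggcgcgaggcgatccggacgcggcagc
GGGCGG, the core of the GC box, was found 1 time upstream of Fmn1, ending near the start, and 3 times upstream of Fam131c. Mrap2 had none. GC content was 60% for Mrap2, 60.8% for Fmn1 and 66.4% for Fam131c, against a median of 52.4% over the 32851 upstream windows of the table. The window of Tspan10, another of the genes lowest in C57BL/6J, had 48.8%, and a second Fmn1 window had 44.4%. Neither held GGGCGG, so the windows of these genes were not uniformly rich in GC.

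Across the members, 11 of 15 matched the promoter table, with 18 windows in all, and Alx4, RP24-330M21.1 and Tmprss13 were among those with no entry. GGGCGG stood on either strand in 8 of the 18 windows, belonging to 7 genes, against 32.7% of all windows. TATAAA was found only upstream of Gcnt1 (12.4% of all windows), CACGTG only upstream of Sypl2 (6.02%) and TGACGT only upstream of Cds1 (6.47%), each searched on both strands. These matches describe letters in a window, and a missing match says nothing about the binding of a factor.

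Mrap2 (ENSMUSG00000042761) lies on chromosome 9 at 87144306 to 87184045 on the plus strand of GRCm38. In C57BL/6J, 7 of 8 libraries held 0 Mrap2 counts and 1 library, male 10% fat replicate 1, held 6 counts, or 0.140 CPM. At these depths a library with 0 counts allows a level of up to 0.0664 to 0.0993 CPM (3 counts, counting error only). Mrap2 lay between 4.34 and 13.0 CPM with a median of 7.05 CPM in NZO/HlLtJ, and between 2.61 and 4.46 CPM with a median of 3.63 CPM in CAST/EiJ. The C57BL/6J libraries did not overlap those of the other strains, and the mean of 0.018 CPM was 0.487% of the CAST/EiJ mean. Within NZO/HlLtJ the libraries spread widely, with 3 at 11.9 to 13.0 CPM (female 10% fat replicate 1, male 44% fat replicate 1 and male 10% fat replicate 2) and the other 5 at or below 7.83 CPM. These high libraries came from both sexes and both diets.

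Fmn1, the actin-nucleating formin (chromosome 2, 113327736 to 113716767, plus strand), had the highest CPM of the members in both expressing strains. It measured 2.08 to 3.34 CPM (median 2.68 CPM) in C57BL/6J, 76.1 to 91.7 CPM (median 82.3 CPM) in NZO/HlLtJ and 119 to 179 CPM (median 140.0 CPM) in CAST/EiJ. Unlike Mrap2, it was counted in every C57BL/6J library, at 3.21% of the NZO/HlLtJ mean. Its counts were not whole in 18 of 24 libraries, and 1.84% of its 100-base transcript windows also occur in the antisense gene Gm13966. Gm13966 itself averaged 0.0081 CPM in C57BL/6J, 0.202 CPM in NZO/HlLtJ and 0.119 CPM in CAST/EiJ.

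Fam131c and Tspan10 were also below 1/8 of the lower strain, as 5 members were in all. Fam131c (chromosome 4, 141368220 to 141384175, plus strand) lay at 0.0551 to 0.298 CPM (median 0.114 CPM) in C57BL/6J, 3.95 to 9.60 CPM (median 5.98 CPM) in NZO/HlLtJ and 0.969 to 2.40 CPM (median 1.35 CPM) in CAST/EiJ. Tspan10, whose product binds the protease ADAM10 (chromosome 11, 120442644 to 120446950, plus strand), lay at 0.0313 to 0.221 CPM (median 0.111 CPM) in C57BL/6J, 0.490 to 1.59 CPM (median 1.19 CPM) in NZO/HlLtJ and 0.385 to 4.50 CPM (median 3.29 CPM) in CAST/EiJ. One CAST/EiJ library, male 44% fat replicate 2, stood alone at 0.385 CPM while the other 7 were at 2.21 CPM or more.

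**Figure D1:**
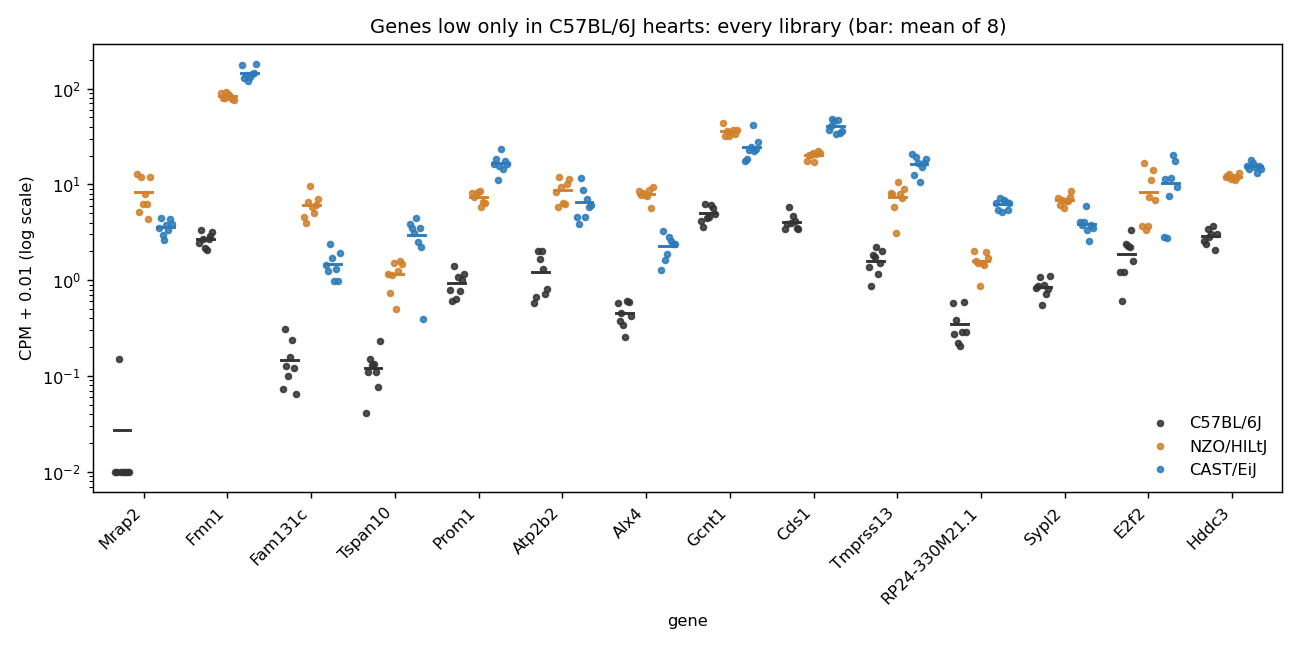
Levels of 14 of the 15 genes in all 24 libraries, as CPM plus 0.01 on a log axis. Each point is a library, short bars are means of 8 libraries, and strains run C57BL/6J, NZO/HlLtJ, CAST/EiJ from left to right within a gene. Mrap2 sits at 0 CPM in 7 of 8 C57BL/6J libraries, and E2f2 is the gene whose C57BL/6J libraries overlap those of another strain.

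The enzymes of glycan and lipid synthesis kept a moderate level in C57BL/6J. Gcnt1 averaged 4.96 ± 0.962 CPM in C57BL/6J, 35.8 ± 3.88 CPM in NZO/HlLtJ and 24.7 ± 7.53 CPM in CAST/EiJ (SD, n = 8 each). Cds1 averaged 4.09 ± 0.796 CPM in C57BL/6J, 20.0 ± 1.79 CPM in NZO/HlLtJ and 40.2 ± 5.76 CPM in CAST/EiJ. Per kilobase these were the highest members in C57BL/6J, at 1.04 CPM per kb for Cds1 and 0.862 CPM per kb for Gcnt1, beside a median of 1.00 CPM per kb over all genes.

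Of the surface proteins, Prom1 (CD133) averaged 0.925 ± 0.281 CPM in C57BL/6J, 7.38 ± 1.04 CPM in NZO/HlLtJ and 16.6 ± 3.55 CPM in CAST/EiJ. Tmprss13 averaged 1.59 ± 0.451 CPM in C57BL/6J, 7.43 ± 2.23 CPM in NZO/HlLtJ and 16.2 ± 3.44 CPM in CAST/EiJ. Both thus had the order C57BL/6J, NZO/HlLtJ, CAST/EiJ from low to high. Prom1 shares 2.71% of its transcript windows with the antisense gene Gm16401. That gene averaged 0.025 CPM in C57BL/6J, 0.147 CPM in NZO/HlLtJ and 0.181 CPM in CAST/EiJ.

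The calcium pump Atp2b2 and the muscle membrane protein Sypl2 had the other order, with NZO/HlLtJ highest. Mrap2, Fam131c, Gcnt1 and Alx4 shared that order, so it was not particular to calcium or muscle genes. Atp2b2 averaged 1.21 ± 0.612 CPM in C57BL/6J, 8.67 ± 2.36 CPM in NZO/HlLtJ and 6.50 ± 2.56 CPM in CAST/EiJ. Sypl2 averaged 0.847 ± 0.183 CPM in C57BL/6J, 6.89 ± 0.875 CPM in NZO/HlLtJ and 3.85 ± 0.943 CPM in CAST/EiJ. Summed skeletal muscle markers (6 of 8 listed) had medians of 1432 CPM in C57BL/6J (range 1277 to 1700 CPM), 3263 CPM in NZO/HlLtJ (2543 to 4753 CPM) and 1467 CPM in CAST/EiJ (1381 to 1645 CPM). The genes summed were Acta1, Myh4, Tnni2, Tnnt3, Ckm and Actn3, while Myh1 and Myh2 were not listed. How much of the sum comes from heart muscle was not tested. The part of these markers in the Sypl2 levels was not tested.

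Alx4 averaged 0.443 ± 0.129 CPM in C57BL/6J, 7.93 ± 1.10 CPM in NZO/HlLtJ and 2.27 ± 0.658 CPM in CAST/EiJ. Summed fibroblast markers (6 of 6 listed) had medians of 800 CPM in C57BL/6J (752 to 820 CPM), 1155 CPM in NZO/HlLtJ (1016 to 1456 CPM) and 695 CPM in CAST/EiJ (621 to 818 CPM). The part of these markers in the Alx4 levels was not tested. The noncoding member RP24-330M21.1, named Gm44751 in GENCODE M21 (chromosome 7, 88311478 to 88315864, plus strand), averaged 0.342 ± 0.150 CPM in C57BL/6J, 1.57 ± 0.359 CPM in NZO/HlLtJ and 6.18 ± 0.770 CPM in CAST/EiJ. Under that GENCODE name the rule would have dropped it and left 14 members.

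In 14 of the 15 genes the highest C57BL/6J library lay below the lowest library of both other strains. The limit that chose the genes favours such a gap, and its share among all genes was not computed. By another measure, 22.9% of all 17203 genes tested were called lower in C57BL/6J than in the mean of the other strains. Nothing is read from either count of members, since the rule chose them on this difference. Just inside the limit were Tmprss13, RP24-330M21.1, Sypl2, E2f2 and Hddc3, at 21.4% to 23.8% of the lower strain. Just outside it were Ush1c, Ctse, Pagr1a, Slc24a4 and Tagap, at 25.1% to 26.7%. The same rule with NZO/HlLtJ as the low strain gave 15 genes, and with CAST/EiJ it gave 114.

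E2f2, which also acts in the maturation of red cells, was the exception. It lay at 0.596 to 3.37 CPM (median 1.88 CPM) in C57BL/6J, 3.35 to 16.7 CPM (median 7.12 CPM) in NZO/HlLtJ and 2.72 to 20.2 CPM (median 10.4 CPM) in CAST/EiJ, so that C57BL/6J overlapped CAST/EiJ and, narrowly, NZO/HlLtJ. Erythroid genes, which mark blood in the tissue, also varied widely between libraries. Alas2, the heme synthesis enzyme of red cell precursors, averaged 94.7 ± 38.2 CPM in C57BL/6J, 194 ± 138 CPM in NZO/HlLtJ and 214 ± 121 CPM in CAST/EiJ (SD, n = 8 each). The sum of 3 erythroid markers (3 of 3 listed) had medians of 2055 CPM in C57BL/6J (1120 to 3810 CPM), 5057 CPM in NZO/HlLtJ (2898 to 14754 CPM) and 4769 CPM in CAST/EiJ (1778 to 8928 CPM). Its order in NZO/HlLtJ and CAST/EiJ depends on Hba-a1, an alpha globin gene that averaged 6.20 CPM in C57BL/6J, 2190 CPM in NZO/HlLtJ and 21.9 CPM in CAST/EiJ, while the Alas2 medians were 86.8 CPM in C57BL/6J, 142 CPM in NZO/HlLtJ and 214 CPM in CAST/EiJ.

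Expressed as a percentage of Alas2 in the same library, E2f2 came to 1.91% ± 0.384 in C57BL/6J, 4.51% ± 0.662 in NZO/HlLtJ and 4.73% ± 0.522 in CAST/EiJ. By library the ratio was 1.27% to 2.54% in C57BL/6J, 3.57% to 5.65% in NZO/HlLtJ and 3.75% to 5.49% in CAST/EiJ. The ratio was chosen after its values were seen and uses the E2f2 levels that chose the gene, so it is a description and supports nothing about its level, and the part of blood in E2f2 was not tested. By strain medians E2f2 did not meet the rule, nor without the NZO/HlLtJ library female 10% fat replicate 2.

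**Figure D2:**
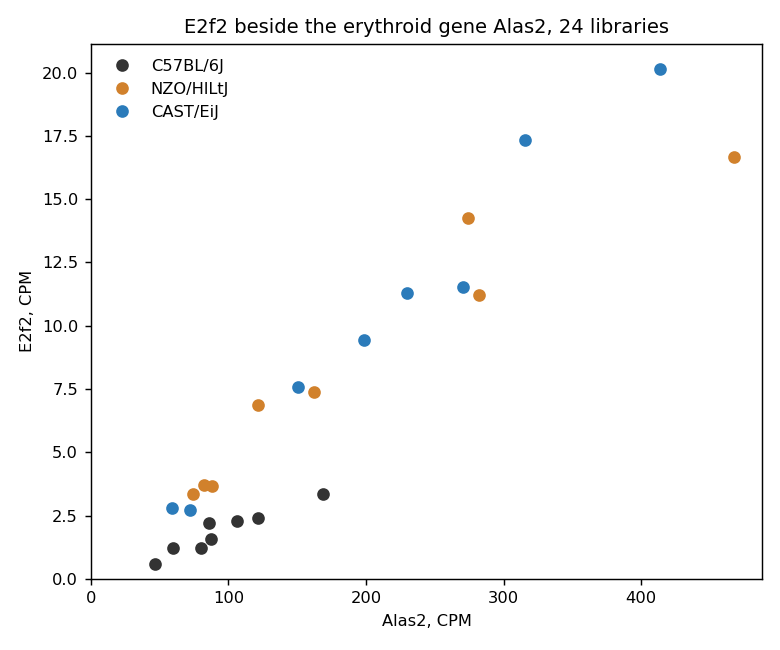
E2f2 against Alas2 in CPM, 1 point for each of the 24 libraries, coloured by strain. C57BL/6J points lie at 1.27% to 2.54% of Alas2, below the ratios of both other strains.

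Hddc3 (chromosome 7, 80343104 to 80350547, plus strand) averaged 2.87 ± 0.531 CPM in C57BL/6J, 12.05 ± 0.686 CPM in NZO/HlLtJ and 15.4 ± 1.39 CPM in CAST/EiJ, and its level is uncertain. Its counts were not whole in any of the 24 libraries, and 57.6% of its transcript windows also occur in other genes on either strand (3.64% on the same strand). On the opposite strand, Gm18310 shares 2454 exonic bases with it and Man2a2 shares 427. Man2a2 averaged 101.5 CPM in C57BL/6J, 190.0 CPM in NZO/HlLtJ and 128 CPM in CAST/EiJ. Gm18310 ran the other way, at 3.19 ± 0.473 CPM in C57BL/6J, 0.152 ± 0.089 CPM in NZO/HlLtJ and 0.097 ± 0.106 CPM in CAST/EiJ. How strand was handled in counting is not given in the sources used here, so reads of these genes may have been divided differently between strains.

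The sum of Hddc3 and Gm18310 was 6.06 ± 0.492 CPM in C57BL/6J, 12.2 ± 0.703 CPM in NZO/HlLtJ and 15.5 ± 1.37 CPM in CAST/EiJ. That puts C57BL/6J at 49.7% of the lower strain, in place of 23.8% for Hddc3 alone, and outside the limit. Neither for Hddc3 nor for the sum did another strain overlap C57BL/6J. No other member shared more than 2.71% of its transcript windows with another gene.

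**Figure D3:**
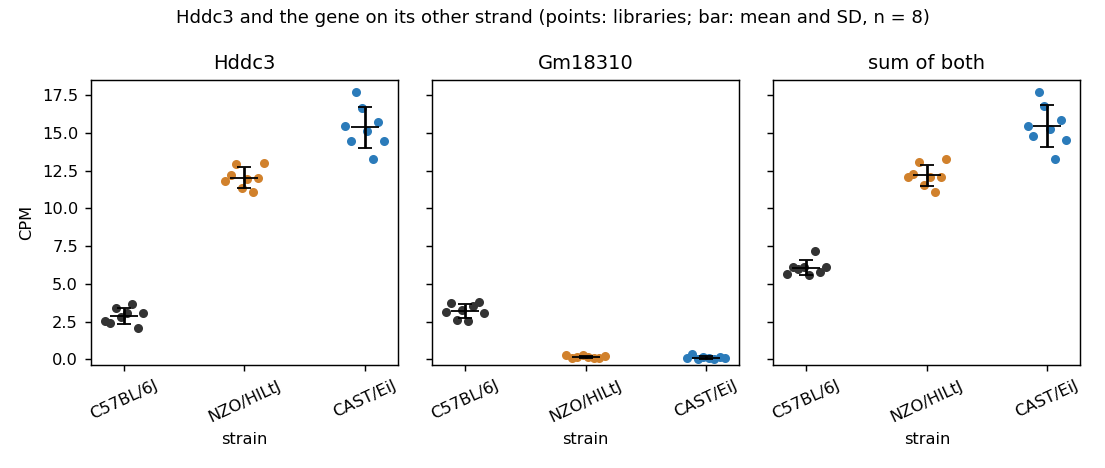
Hddc3, the opposite-strand gene Gm18310 and their sum, in CPM by strain. Points are libraries, and bars show the mean and SD of 8 libraries. Gm18310 is near 3.19 CPM in C57BL/6J and below 1 CPM elsewhere, and the summed C57BL/6J level is 6.06 CPM.

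The rule treated NZO/HlLtJ and CAST/EiJ alike, so the difference between them could be tested, and 14 of the 15 genes differed. These strains are partly confounded with the range of the library identifiers, since the lowest range held no NZO/HlLtJ library. Sex in C57BL/6J and diet in CAST/EiJ are partly confounded with that range too. Outside the lowest range, C57BL/6J males were in the middle range and C57BL/6J females in the highest. Likewise, CAST/EiJ libraries at 10% fat were in the middle range and those at 44% fat in the highest. Mrap2, Fam131c, Alx4, Sypl2, Gcnt1 and Atp2b2 were higher in NZO/HlLtJ, and 8 members were lower, among them RP24-330M21.1, Tspan10, Tmprss13, Prom1, Cds1, Fmn1 and Hddc3. The test was edgeR's quasi-likelihood test with Benjamini-Hochberg adjustment over all 17203 genes and a threshold of 0.05. Of all genes tested, 30.5% were higher and 29.8% lower in the same comparison. The median size of the change, whatever its direction, was 1.13 on the log2 scale over the members and 0.31 over all genes tested. The median signed change was -0.34 over the members and 0.00267 over all genes.

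Fam131c showed the greatest rise, with a log2 change of 2.05 ± 0.17 (SE) and an adjusted p of 3.74e-09 by edgeR. Alx4 followed at 1.85 ± 0.15 (SE, adjusted p = 2.95e-09). Mrap2 was higher in NZO/HlLtJ by 1.23 ± 0.26 (adjusted p = 0.0017), and leaving out single libraries moved it between 1.01 and 1.36. The smaller rises were 0.87 ± 0.12 for Sypl2, 0.57 ± 0.14 for Gcnt1 and 0.46 ± 0.12 for Atp2b2, with adjusted p of 3.90e-06, 0.00246 and 0.00311.

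The noncoding RP24-330M21.1 fell furthest in NZO/HlLtJ, with a log2 change of -1.97 ± 0.11 (SE) and an adjusted p of 1.15e-11 by edgeR. Cds1 was at -0.97 ± 0.07 (adjusted p = 5.33e-10). Tmprss13 (-1.15 ± 0.17), Prom1 (-1.13 ± 0.12), Fmn1 (-0.78 ± 0.08) and Hddc3 (-0.33 ± 0.07) had adjusted p between 3.18e-07 and 0.000337. Tspan10 fell by 1.35 on the log2 scale with an SE of 0.34 (adjusted p = 0.00285). Every NZO/HlLtJ library, at 1.59 CPM or less, lay below the CAST/EiJ libraries except the low one at 0.385 CPM. Without single libraries the Tspan10 change ranged from -1.57 to -0.70. Tspan10 changed least without the CAST/EiJ library male 44% fat replicate 1, which leaves the low library alone in its group. With the range of the library identifiers as a block its change was -0.85, and the call was lost (adjusted p = 0.0589). E2f2 was at -0.34 ± 0.45 (adjusted p = 0.545) and was not called.

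**Figure D4:**
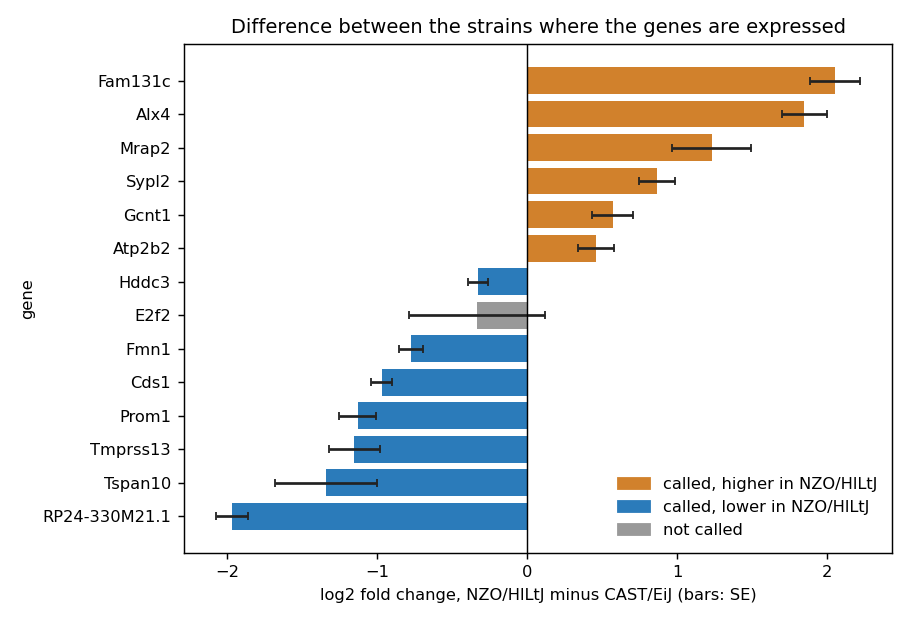
Log2 fold change of 14 of the 15 genes, NZO/HlLtJ minus CAST/EiJ, with SE derived from the F statistic of the edgeR test. Bars to the right are genes higher in NZO/HlLtJ (6 called) and bars to the left genes lower (7 of those shown called), and E2f2 in grey was not called.

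Atp2b2, the plasma membrane calcium pump, was the member that differed by sex. In C57BL/6J it had 0.683 ± 0.098 CPM in females and 1.75 ± 0.334 CPM in males (SD, n = 4 each). NZO/HlLtJ had 6.68 ± 1.08 CPM in females and 10.7 ± 1.12 CPM in males, and CAST/EiJ 4.68 ± 0.809 CPM in females and 8.32 ± 2.41 CPM in males. In each strain the highest female library lay below the lowest male one. The share of all genes separated by sex in this way was not computed.

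In the test by strain Atp2b2 fell in C57BL/6J females, by a log2 change of -1.35 ± 0.23 (SE, edgeR adjusted p = 0.0142), and 1 of 15 members was called there against 0.145% of all genes. Sex in C57BL/6J partly follows the range of the library identifiers, and with that range as a block Atp2b2 was still called. The call did not hold under limma-voom (adjusted p = 0.461) or without any single one of 6 of the 8 C57BL/6J libraries, the male libraries 44% fat replicate 1 and 10% fat replicate 2 being the others (adjusted p 0.0597 to 0.138, log2 change -1.18 to -1.42). In NZO/HlLtJ the change was -0.65 ± 0.17 (adjusted p = 0.281) and in CAST/EiJ -0.85 ± 0.17 (adjusted p = 0.0623), and 0 members were called, against 0.134% of all genes in NZO/HlLtJ and 0.0872% in CAST/EiJ. By edgeR, an unadjusted p under 0.05 was reached by 5 members in C57BL/6J, 3 in NZO/HlLtJ and 4 in CAST/EiJ, against 6.27%, 7.03% and 8.55% of all genes. DESeq2 called Atp2b2 in CAST/EiJ (adjusted p = 0.0042), as did edgeR without the CAST/EiJ library male 10% fat replicate 2 (adjusted p = 0.0137) or female 44% fat replicate 2 (adjusted p = 0.0323).

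Over all strains, a comparison added after the data were seen, Atp2b2 was lower in females by -0.95 ± 0.11 on the log2 scale (SE, edgeR adjusted p = 0.000112). It held without each single library, at -1.01 to -0.88. It was the 1 member called there, against 0.372% of all genes. Cds1 came next at -0.27 ± 0.06 (adjusted p = 0.0587), with 36.3 ± 3.13 CPM in females and 44.0 ± 5.31 CPM in males of CAST/EiJ. The sex effect was not called as different between NZO/HlLtJ and CAST/EiJ for any member (0% of all genes), where edgeR gave 1 member, Tmprss13, an unadjusted p under 0.05 (8.48% of all genes) and DESeq2 and limma-voom called none.

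**Figure D5:**
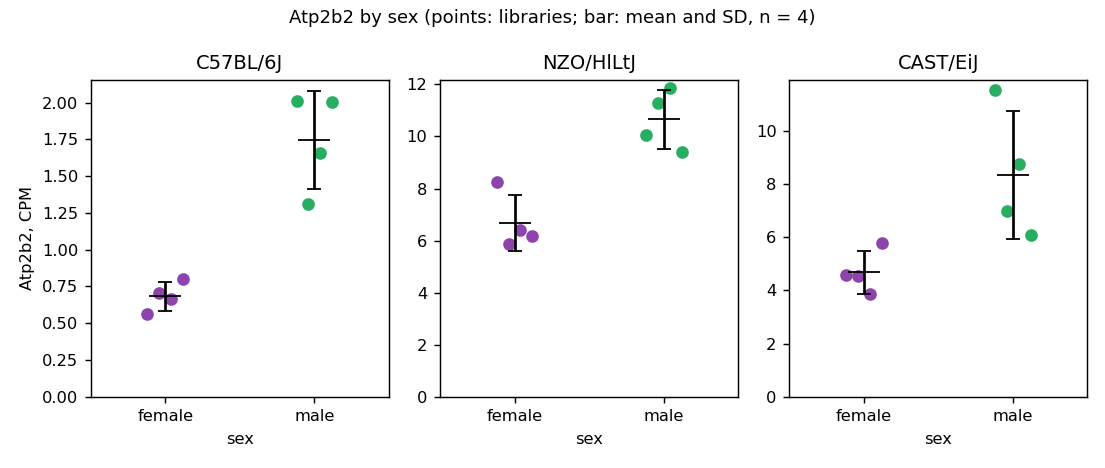
Atp2b2 in CPM by sex within each strain, females left of males, with a separate scale for each strain. Points are libraries, and bars show the mean and SD of 4 libraries. Females lie below males without overlap in all 3 strains, and the share of all genes separated in this way was not computed.

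No member was called for diet. Between 44% and 10% fat, edgeR, DESeq2 and limma-voom called 0 of 15 members in each strain, against 0.0407% of all genes in C57BL/6J and 0% in NZO/HlLtJ and in CAST/EiJ by edgeR. Members with an unadjusted p under 0.05 by edgeR numbered 1 in C57BL/6J, 1 in NZO/HlLtJ and 0 in CAST/EiJ, and the gene was RP24-330M21.1 in both. Of all genes, 5.62% in C57BL/6J, 7.17% in NZO/HlLtJ and 6.61% in CAST/EiJ reached that p. The C57BL/6J counts say little of the lowest members, since 11 of 15 members pass the count filter on that strain's libraries alone and Mrap2 has no change to estimate there. The difference of the diet effect between NZO/HlLtJ and CAST/EiJ gave 0 members by edgeR, DESeq2 and limma-voom, against 0% of all genes by edgeR. At an unadjusted p under 0.05 edgeR gave 0 members there, against 4.64% of all genes. Mrap2 had 8.05 ± 2.65 CPM at 44% fat and 8.59 ± 4.51 CPM at 10% fat in NZO/HlLtJ, and 3.83 ± 0.855 CPM at 44% fat and 3.37 ± 0.349 CPM at 10% fat in CAST/EiJ (SD, n = 4 each).

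RP24-330M21.1 had lower values at 44% fat in every strain without passing the test. It averaged 0.237 ± 0.039 CPM at 44% fat and 0.447 ± 0.147 CPM at 10% fat in C57BL/6J. In NZO/HlLtJ it had 1.32 ± 0.312 CPM at 44% fat and 1.81 ± 0.212 CPM at 10% fat. CAST/EiJ had 5.59 ± 0.579 CPM at 44% fat and 6.77 ± 0.348 CPM at 10% fat. The diets did not overlap in any strain. The gap was narrow in C57BL/6J (0.276 CPM, or 10 counts, against 0.277 CPM, or 11 counts). It was narrow too in CAST/EiJ (6.45 CPM against 6.46 CPM), where diet partly follows the range of the library identifiers. The share of all genes separated by diet in this way was not computed. Over all strains, a comparison added after the data were seen, the log2 change was -0.52 ± 0.11 (SE, edgeR adjusted p = 0.0639), where 0 members were called against 0.157% of all genes and 1, this one, had an unadjusted p under 0.05 (8.81% of all genes). DESeq2 called it, limma-voom called no member, and edgeR did so without the NZO/HlLtJ library male 44% fat replicate 1.

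Genes beside the members were examined to see whether the low level extended along the chromosome. The members lie on 10 chromosomes, and the closest pair, E2f2 and Fam131c on chromosome 4, is 5172163 bases apart. The nearest tested gene on each side that did not overlap the member gave 30 neighbours at gaps of 538 to 513770 bases. Of these, 7 (23.3%) were lower in C57BL/6J than in the mean of the other strains, against 22.9% of all genes tested, and 10 (33.3%) were higher, against 24.8%. The share lower among these neighbours was thus near that of all genes. Genes that overlap a member were left out of it. Of those listed, all but Gm18310 had their lowest mean in C57BL/6J, most of them at under 1 CPM in each strain. Gm43272 within Cds1 averaged 0.141 CPM in C57BL/6J, 0.932 CPM in NZO/HlLtJ and 0.981 CPM in CAST/EiJ. Ext2, which overlaps Alx4, averaged 37.7 CPM, 40.9 CPM and 44.3 CPM in the same order. Whether their reads come from the members was not tested.

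The neighbours of Mrap2 on both sides were called lower in C57BL/6J than in the mean of the other strains. Cyb5r4, a cytochrome b5 reductase 66532 bases to the left, had 27.1 ± 2.19 CPM in C57BL/6J, 40.1 ± 1.61 CPM in NZO/HlLtJ and 44.4 ± 3.09 CPM in CAST/EiJ, a log2 change of -0.58 ± 0.03 (SE, edgeR adjusted p = 4.84e-11). Cep162, a centrosomal protein gene 5532 bases to the right, had 8.06 ± 0.712 CPM in C57BL/6J, 13.5 ± 0.885 CPM in NZO/HlLtJ and 7.18 ± 0.563 CPM in CAST/EiJ, so C57BL/6J lay between the others. The ryanodine receptor gene Ryr3, to the left of Fmn1, had 4.95 ± 2.36 CPM in C57BL/6J, 13.7 ± 4.43 CPM in NZO/HlLtJ and 7.55 ± 2.90 CPM in CAST/EiJ (log2 change -1.02, adjusted p = 0.0143). Scg5, to the right of Fmn1, was also called lower, at only 0.020 CPM in C57BL/6J, 0.171 CPM in NZO/HlLtJ and 0.077 CPM in CAST/EiJ. Its call was lost without the CAST/EiJ library female 10% fat replicate 2.

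Other members stood beside genes called higher in C57BL/6J than in the mean of the other strains. Prune2 next to Gcnt1 had 290.2 ± 21.8 CPM in C57BL/6J, 176 ± 24.5 CPM in NZO/HlLtJ and 121 ± 13.4 CPM in CAST/EiJ (log2 change 1.06, edgeR adjusted p = 1.18e-09). Cd38, which makes cyclic ADP-ribose, lies next to Prom1 and was at 0.94 (adjusted p = 2.47e-09), with 11.3 ± 1.07 CPM in C57BL/6J, 7.14 ± 0.443 CPM in NZO/HlLtJ and 5.45 ± 1.36 CPM in CAST/EiJ. The protease gene Ctsc ends 590 bases before RP24-330M21.1 and was at 0.56, with 36.6 ± 3.84 CPM in C57BL/6J, 27.7 ± 4.40 CPM in NZO/HlLtJ and 24.4 ± 1.64 CPM in CAST/EiJ. These 3 genes had their highest mean in C57BL/6J.

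For another pair of called neighbours, C57BL/6J lay between the other strains. Fxyd6, a regulator of the sodium pump next to Tmprss13, had 16.9 ± 2.33 CPM in C57BL/6J, 19.6 ± 2.44 CPM in NZO/HlLtJ and 7.11 ± 0.834 CPM in CAST/EiJ. Gm43270 next to Cds1 had 0.849 ± 0.363 CPM in C57BL/6J, 1.58 ± 0.403 CPM in NZO/HlLtJ and 0 in every CAST/EiJ library, so no fold is given.

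Genes that work with Mrap2 were followed by a list of 21 melanocortin and cyclic AMP signalling genes, chosen with earlier results of these data known. Of these 13 were listed, and besides Mrap2, 9 entered the test. In C57BL/6J against the mean of the others, 2 of the 9 were lower, 1 was higher and 6 were not called, against 22.9% lower and 24.8% higher of all genes tested. Mrap, which brings the adrenal melanocortin receptor to the cell surface, had 4.69 ± 0.503 CPM in C57BL/6J, 5.64 ± 0.728 CPM in NZO/HlLtJ and 8.40 ± 1.64 CPM in CAST/EiJ, a log2 change of -0.48 ± 0.09 (SE, edgeR adjusted p = 0.000158). Adenylyl cyclase 5 (Adcy5) was at -0.28 and Adcy6 at 0.13. The median change of the 9 genes was -0.05 on the log2 scale, beside 0.00207 over all genes tested.

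Between NZO/HlLtJ and CAST/EiJ, 1 of the 9 was higher, 6 were lower and 2 were not called, against 30.5% higher and 29.8% lower of all genes tested, with a median of -0.29 beside 0.00267 over all genes. Prokr1, a prokineticin receptor, was the one higher in NZO/HlLtJ, at 1.02 ± 0.278 CPM in NZO/HlLtJ and 0.272 ± 0.0998 CPM in CAST/EiJ, and Mrap was lower at -0.55. Mc2r, Pomc and Hcrtr1 were listed at under 1 CPM in each strain and did not enter the test. The receptors Mc1r, Mc3r, Mc4r and Mc5r were not among the listed genes and have no values here.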

How the data were processed

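RNA of mouse heart in 24 libraries, 12 groups of strain, sex and diet was sequenced as polyadenylated RNA, per the labels. The authors deposited expected counts per gene (estimated counts; 19.3% of values were further than 1e-06 from a whole number). A second deposited matrix holds variance-stabilized levels, close to log2, and was tabulated beside the counts without a test. The submitters' processing notes name the build GRCm38 and the tool DESeq2. Not given in the sources used here are the aligner, the counting program, its use of strand, and whether reads of NZO/HlLtJ and CAST/EiJ were placed on sequence of their own strain.

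The members and gene lists were chosen with earlier results of these data known. All members but 1, which is counted but not reported here, were named, with the 5 genes nearest outside the limit and the 6 called neighbours of smallest adjusted p. Cep162, Ryr3 and Scg5 were added after their values were seen. Members were found on plain CPM. Gene symbols, positions and the gaps to neighbours are from the annotation that the authors deposited. Overlapping genes, exon lengths and transcript sequences are from GENCODE M21.

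Expected counts were rounded and fitted with edgeR 4.0.16 in R 4.3.3: TMM factors (0.954 to 1.06), filterByExpr (min.count 10, min.total.count 15), and 1 mean for each of 12 groups over all libraries. Of 20961 genes, 17203 were tested, including all 15 members. The filter passes a gene through the strains where it is high. Calls used a Benjamini-Hochberg adjusted p under 0.05. The biological coefficient of variation was 0.127. The SE of an edgeR log2 change was taken as its size divided by the square root of the F statistic of the test. Fits were checked on simulated counts. Alternatives were DESeq2 1.42.0, limma-voom 3.58.1, RLE factors, no filter, the range of library identifiers as a block (the labels do not call it a batch), the compared strains alone, and each library left out. Added after the data were seen were diet and sex over all strains, the sum of Hddc3 and Gm18310, and the GENCODE symbols. Levels are mean ± SD in CPM. The floor given for Mrap2 covers counting error only.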

Additional observations from a re-analysis of the deposited data

Results flagged for a closer look

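Of 45 sets of 8 libraries (15 members in 3 strains), 4 held a library that stood far from the others. The measure was the gap to the next library as a share of the range, with a cutoff of 0.526. Its nominal rate of about 1 in 20 assumes normally distributed values, which CPM need not be, so the number of sets is not compared with it. Mrap2 in C57BL/6J had 0.1401 CPM (6 counts) in male 10% fat replicate 1 and 0 in the other 7 libraries. With 7 libraries at 0, any level above 0 in the remaining one is flagged. Gcnt1 had its highest library at 41.62 CPM in CAST/EiJ (female 10% fat replicate 2, the next at 27.47 CPM) and at 43.91 CPM in NZO/HlLtJ (female 10% fat replicate 1, the next at 37.37 CPM). Sypl2 in CAST/EiJ had 5.882 CPM in male 44% fat replicate 1, with the next library at 4.027 CPM.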

How the results depend on the processing

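The limit set the number of members: 87 genes passed at 1/2 of the lower strain, 5 at 1/8 and 9 with a minimum of 5 CPM. Without single libraries it was 15 to 18. Within one sex or diet some members missed the limit: RP24-330M21.1 and Tspan10 in females, E2f2, Hddc3 and Tmprss13 in males, E2f2 at 44% fat and Alx4 at 10% fat. Of the sex and diet counts, limma-voom called 0 members by sex in C57BL/6J. DESeq2 called 1 by sex in CAST/EiJ, 1 by diet over all strains and 2 by sex over all strains, the second being Cds1. The edgeR counts of these comparisons also moved in some fits without a single library. Every call between NZO/HlLtJ and CAST/EiJ kept its direction and threshold in each fit named above, except Tspan10 with the identifier range as a block (-0.85). E2f2, not called, ranged from -0.72 to 0.18 without single libraries and turned positive without the CAST/EiJ library male 10% fat replicate 2 (adjusted p = 0.743). No paired analysis was possible because the labels carry no replicate numbers. The C57BL/6J levels of Mrap2, Fam131c and Tspan10 rest on few counts, which limits what could be seen of diet or sex in those genes within C57BL/6J. A p that missed the threshold does not show that the groups were alike.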
